A study of Mus musculus with 14 samples.

Results

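The genes described here mark the blood vessels of the brain: 38 genes of endothelial cells, of the blood-brain barrier those cells build, and of the pericytes and basement membrane around them. They were chosen by name from knowledge of the vessel wall, but with earlier results of these data already known. Their shares set beside those of all genes are therefore descriptive. All 38 are among the 23375 genes measured, and all 38 passed the filter used for testing (at least 1 FPKM in at least 2 libraries). FPKM counts sequenced fragments relative to transcript length and to all fragments mapped in the library, so levels of different genes can be set side by side. Of the 38, 29 reached 1 FPKM in every library and 9 did not.

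Poly(A) RNA of mouse brain was sequenced in 14 libraries, 2 for each of 7 groups. Adult KO2 brains lacked the imprinting control regions H19-DMR and IG-DMR, adult KO3 brains lacked those and Rasgrf1-DMR, and adult wild-type brains came as a set 1 and a set 2. At E19.5, the embryonic stage just before birth, KO2 brains lacked the same H19-DMR and IG-DMR. E19.5 KO7 brains lacked 7 others (the DMRs of Peg3, Gnas, Nespas, Snrpn, Igf2r, Grb10 and Kcnq1), and E19.5 wild-type brains were the embryonic controls. These regions (DMRs, differentially methylated regions) make nearby genes active from the maternal or the paternal copy alone. In the study, KO2 and KO3 animals were built from a pair of maternal genomes and KO7 animals from a pair of paternal ones, with modified haploid embryonic stem cells in the place of one gamete. Genotype, parental origin and the way an animal was made therefore cannot be told apart. The labels name neither a brain region, nor a strain, nor an adult age, and do not say that the 2 libraries of a group came from separate animals. The p-values then measure only the spread between these libraries, which may be technical.

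Brain endothelial cells are joined by tight junctions and line the vessels as one closed sheet. Fuel, amino acids and lipids cross them through dedicated transporters, while ABC pumps return foreign compounds to the blood. Pericytes sit on the outer face of capillaries, share a basement membrane with the endothelium and are recruited by the growth factor PDGF-B from endothelial cells. Late in gestation the vessel network of the brain is still growing by sprouting, a process led by VEGF and angiopoietin signals.

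In every library the tissue label was matched by neuronal markers, whose summed level over 7 genes lay between 1864 and 3623 FPKM. Low values were handled differently in 4 libraries, those of adult KO3 and of wild-type set 2: 9994 genes were listed at 0 in all 4, of which 6396 were above 0 in another library. For that reason adult KO2 was compared with wild-type set 1 and adult KO3 with set 2. Replicate libraries correlated across genes with r between 0.964 and 0.983 on the log2 scale. Earlier work on these data had marked 3 libraries as standing apart (replicate 2 of adult KO3, replicate 2 of wild-type set 2 and replicate 1 of E19.5 KO2), and counts from the comparisons they enter are also given without them. In E19.5 KO2, Xist stood at 1.5 FPKM in replicate 1 and at 84.0 FPKM in replicate 2, beside 106 to 117 FPKM in wild type. Xist and Y-linked genes were read at E19.5 alone, so the sex of the adult samples is not given here. The depth behind each value is unknown, since the table holds no counts.

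**Figure D1:**
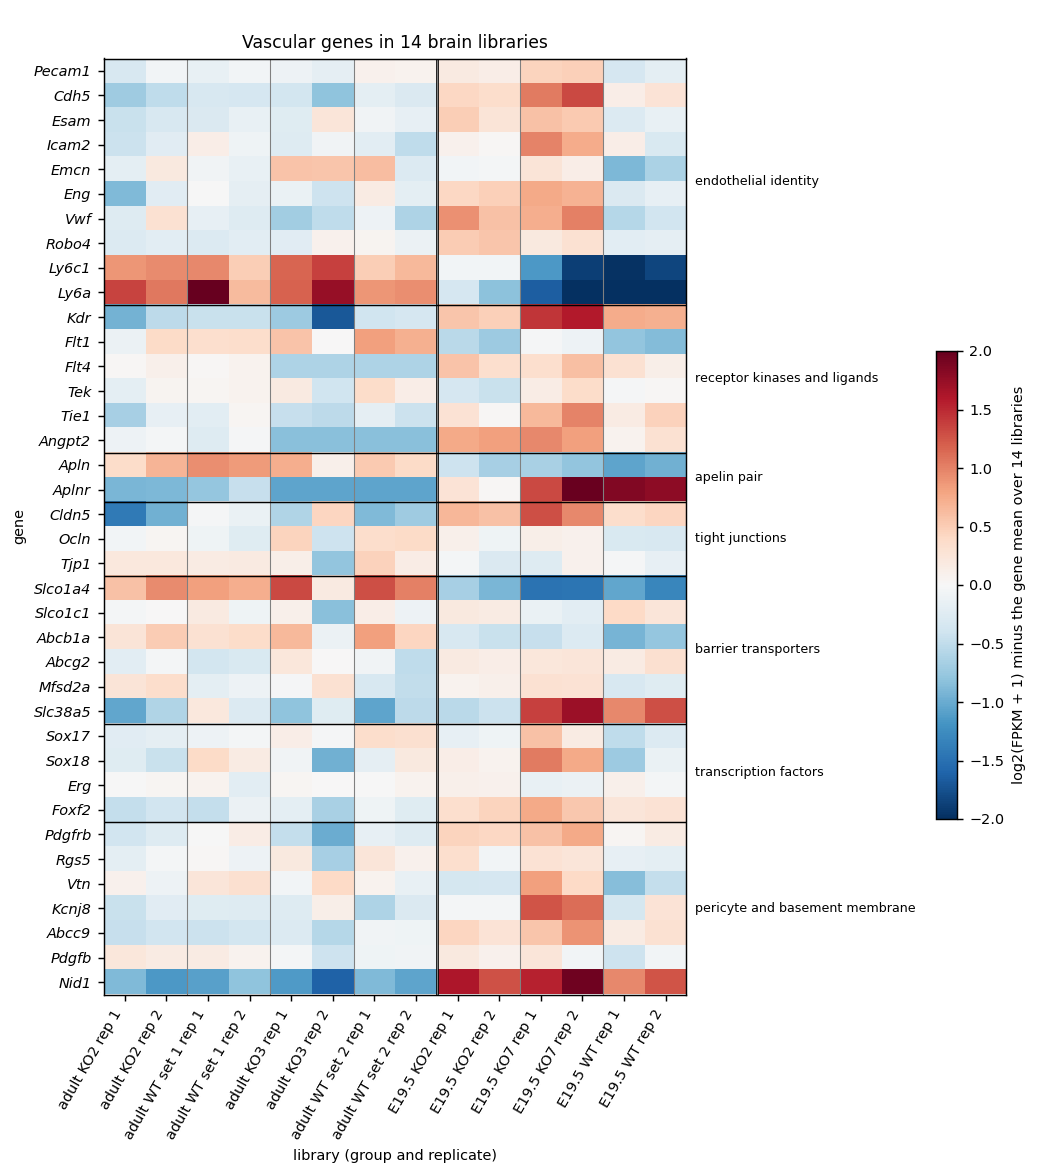
Level of each of the 38 genes in each of the 14 libraries, as log2(FPKM + 1) minus that gene's mean over all libraries, with genes in rows ordered by role and libraries in columns by group. Colours are clipped at 2 log2 units above or below the mean. Ly6c1 and Ly6a are above their means in every adult column and lowest in E19.5 KO7 and wild type, and Nid1 is below its mean in every adult column.

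Most of these genes are faint in whole brain, where vessel cells are a minority. In E19.5 wild type, 31 of the 38 averaged under 10 FPKM and 7 more than that. The highest was Cldn5, at 44.8 ± 1.80 FPKM (SD, n = 2), followed by Vtn at 21.7 ± 4.14 FPKM, and the lowest was Sox17 at 0.705 ± 0.194 FPKM. Between those ends, Slco1c1 (15.97 ± 1.31 FPKM) and Rgs5 (15.3 ± 0.180 FPKM) did not differ beyond their spread, and neither did Mfsd2a, Nid1 and Tjp1, at 12.2 to 12.8 FPKM. In adult wild type (set 1) the order had changed at the top, with Ly6c1 at 43.8 ± 10.2 FPKM, Vtn at 42.6 ± 1.78 FPKM and Cldn5 at 32.1 ± 1.93 FPKM. The first pair lay within their spread of each other. Aplnr was the lowest there, at 0.356 ± 0.213 FPKM.

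In E19.5 KO7 brains the vessel genes were higher than in wild type across most of the set. Of the 38 members, 13 rose, none fell and 25 did not pass the test (limma on log2(FPKM + 1), adjusted p under 0.05). Among all 14322 genes tested, 3.02% rose and 1.43% fell, 4.45% in all. The median log2 change was 0.54 over the members and 0.00 over all genes, and 33 of 38 members lay above zero, where 50.6% of all genes did. Both KO7 libraries lay above both wild-type libraries for 31 members, which is 81.6% of the set, whereas 30.7% of all genes did so. They lay below for 3 members and for 29.6% of all genes. Summed over the 38 genes, the level was 394 to 418 FPKM in KO7 and 239 to 261 FPKM in wild type. In whole tissue, more cells of a type and more RNA per cell cannot be told apart, and neither can fewer cells and less RNA.

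Among the endothelial identity genes, 7 of 10 rose. Vwf, which encodes von Willebrand factor, the clotting protein that endothelium stores and secretes, stood at 7.83 and 9.71 FPKM in KO7 and at 2.60 and 3.07 FPKM in wild type. Both KO7 libraries were well above both controls, and the log2 change was 1.35 (SE 0.222, limma adjusted p = 0.00915). Cdh5, the VE-cadherin that holds neighbouring endothelial cells together, stood at 11.3 and 13.9 FPKM in KO7 and at 5.58 and 6.23 FPKM in wild type. Its ratio of means was 2.14 and its log2 change 0.98 (SE 0.163, adjusted p = 0.00961). Pecam1, the adhesion molecule CD31, had 8.25 and 8.48 FPKM in KO7 and 4.42 and 4.91 FPKM in wild type, a log2 change of 0.73 (adjusted p = 0.0117). Eng, the TGF-beta co-receptor endoglin, had 13.4 and 12.7 FPKM in KO7 and 5.95 and 6.55 FPKM in wild type, a log2 change of 0.96 (adjusted p = 0.0248). For each of these the groups stood clear of each other.

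Icam2, a ligand for leukocyte integrins, had 6.32 and 5.17 FPKM in KO7 and 3.04 and 1.98 FPKM in wild type (log2 change 0.95, adjusted p = 0.0167). Emcn, the endothelial sialomucin endomucin, had 4.65 and 4.22 FPKM in KO7 and 1.53 and 2.06 FPKM in wild type (log2 change 0.96, adjusted p = 0.0472). Esam, an adhesion molecule of endothelial junctions, had 12.5 and 12 FPKM in KO7 and 6.45 and 7.13 FPKM in wild type (log2 change 0.77, adjusted p = 0.0251). In all 3 genes the lower KO7 library exceeded the higher wild-type one. Robo4, an endothelial receptor that stabilizes vessels, did not pass (log2 change 0.44, adjusted p = 0.0889), and neither did Ly6c1 or Ly6a. Ly6c1 and Ly6a are surface proteins of the Ly6 family with near-identical copies elsewhere in the genome, so that their values are uncertain throughout, since the authors' counting could split reads between copies.

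Among receptor kinases and ligands, 1 of 6 passed. Angpt2, the angiopoietin that sprouting endothelium releases to loosen vessels, stood at 2.47 and 2.12 FPKM in KO7 and at 0.859 and 1.19 FPKM in wild type, a log2 change of 0.70 (SE 0.129, adjusted p = 0.0148). The VEGF receptors were high in KO7 libraries without passing. Kdr, the main signalling receptor for VEGF-A, had 12.9 and 14.5 FPKM in KO7 and 7.64 and 7.41 FPKM in wild type (log2 change 0.78, adjusted p = 0.106). Flt1, which binds VEGF-A and limits its action, had 5.47 and 5.14 FPKM in KO7 and 2.83 and 2.61 FPKM in wild type (log2 change 0.76, adjusted p = 0.0537).

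The angiopoietin receptor Tek (TIE2) had 3.24 and 3.92 FPKM in KO7, 2.00 and 1.79 FPKM in KO2 and 2.73 and 2.88 FPKM in wild type. The KO7 libraries were the highest and the KO2 libraries the lowest, with no overlap, but Tek passed in neither (log2 change 0.26 in KO7, adjusted p = 0.435, and -0.39 in KO2, adjusted p = 0.325). Its partner receptor Tie1 had 5.61 and 7.37 FPKM in KO7 and 3.72 and 4.81 FPKM in wild type (log2 change 0.51, adjusted p = 0.178). Flt4, the receptor for VEGF-C, had 0.944 and 1.33 FPKM in KO7 and 0.914 and 0.671 FPKM in wild type, near the floor of what was tested.

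Sox18 and Sox17, the genes of this set from the SOX F group of endothelial transcription factors, both passed. Sox18 had 12.6 and 10.1 FPKM in KO7 and 2.99 and 5.04 FPKM in wild type, a ratio of means of 2.83 (log2 change 1.32, SE 0.276, adjusted p = 0.0239). Sox17, which is linked to arterial identity, had 2.34 and 1.5 FPKM in KO7 and 0.568 and 0.842 FPKM in wild type (log2 change 0.77, adjusted p = 0.0189). Neither pair of groups overlapped. Erg, an ETS factor that maintains endothelial identity, stood at 1.05 and 1.10 FPKM in KO7 and at 1.42 and 1.19 FPKM in wild type. Erg thus had the lower level in both KO7 libraries, and it did not pass.

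Of the barrier genes, none of the 3 tight junction genes and 1 of the 6 transporters passed. Mfsd2a, which carries the omega-3 fatty acid DHA into the brain and holds down transcytosis, had 19.6 and 19.3 FPKM in KO7 and 12.4 and 13.1 FPKM in wild type (log2 change 0.57, adjusted p = 0.0284). Ocln, the tight junction protein occludin, had 2.90 and 2.82 FPKM in KO7 and 1.93 and 1.88 FPKM in wild type (log2 change 0.41, adjusted p = 0.307). Cldn5, the claudin that seals brain endothelial tight junctions, had 84.1 and 66.9 FPKM in KO7 and 43.5 and 46.1 FPKM in wild type, and missed the threshold (log2 change 0.73, adjusted p = 0.145). Both organic anion transporters pointed downward without passing. Slco1c1, the carrier of thyroxine, had 11.4 and 10.7 FPKM in KO7 and 16.9 and 15 FPKM in wild type (log2 change -0.49, adjusted p = 0.258). Slco1a4 had 0.646 and 0.655 FPKM in KO7 and 1.21 and 0.854 FPKM in wild type. In both, the KO7 libraries were the lower ones, with no overlap.

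Of the 7 pericyte and basement membrane genes, 2 rose in KO7 and all 7 had changes above zero, between 0.33 and 1.27 on the log2 scale. Vtn, the matrix protein vitronectin made by pericytes in the brain, had 62.4 and 46.0 FPKM in KO7 and 18.8 and 24.7 FPKM in wild type (log2 change 1.27, SE 0.189, adjusted p = 0.00641). Kcnj8, the pore of the ATP-sensitive potassium channel of pericytes, had 7.30 and 6.53 FPKM in KO7 and 1.73 and 3.22 FPKM in wild type (log2 change 1.22, SE 0.207, adjusted p = 0.0105). The KO7 libraries were far above the controls in both. Abcc9, the regulatory partner of that channel, had 3.39 and 4.63 FPKM in KO7 and 2.38 and 2.72 FPKM in wild type, and missed the threshold (log2 change 0.49, adjusted p = 0.0997). Pdgfrb, the PDGF-B receptor of pericytes, had 8.39 and 9.5 FPKM in KO7 and 5.39 and 6.02 FPKM in wild type (log2 change 0.57, adjusted p = 0.081). Its ligand gene Pdgfb, expressed by endothelium, had 8.38 and 6.66 FPKM in KO7 and 4.93 and 6.63 FPKM in wild type, and Rgs5, a G-protein regulator of pericytes, had 21.4 and 20.7 FPKM in KO7 and 15.4 and 15.2 FPKM in wild type. Neither passed (adjusted p = 0.273 and 0.288).

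**Figure D2:**
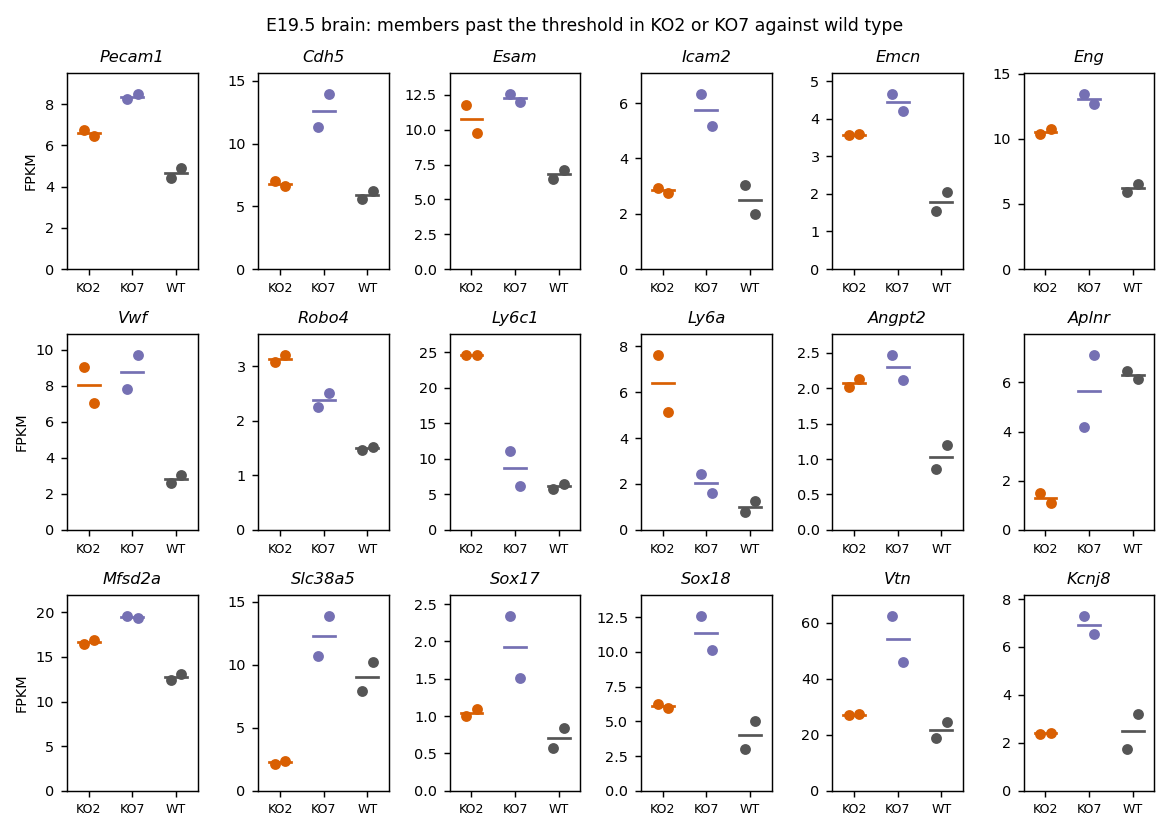
FPKM per library at E19.5 for the members that passed the test in either knockout, with KO2 and KO7 points left of the wild-type points and a bar at each group's mean of 2 libraries. Vwf is high in both knockouts, Ly6c1 is at 24.6 FPKM in both KO2 libraries and at 11.1 FPKM or less elsewhere, and Aplnr is lowest in KO2, at 1.5 and 1.11 FPKM.

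Markers of other cells also differed between these libraries. Of 6 meningeal and fibroblast markers, 5 rose in KO7, and their summed level was 159 to 182 FPKM in KO7 and 57.4 to 81.8 FPKM in wild type. Of 5 erythroid markers, 2 rose, with sums of 2478 to 2641 FPKM in KO7 and 95 to 519.5 FPKM in wild type. Of 4 smooth muscle markers tested, 1 rose (Acta2, log2 change 1.66, adjusted p = 0.00777), with sums of 10.7 to 13.9 FPKM in KO7 and 5.33 to 6.26 FPKM in wild type. Of 6 microglial and macrophage markers, 1 rose (Mrc1, log2 change 1.06, adjusted p = 0.000874), with sums of 27.6 to 29.3 FPKM in KO7 and 19.7 to 23.0 FPKM in wild type. Of 7 astrocyte markers 1 rose in KO7 and 5 were below zero, with a median log2 change of -0.17 and sums of 234 to 322 FPKM in KO7 and 205 to 245 FPKM in wild type. None of the 7 neuronal and 6 oligodendrocyte markers passed, with medians of -0.23 and -0.13. At E19.5 only Mobp (oligodendrocytes) and Cnn1 (smooth muscle) were listed at 0 in a library. Of 4 choroid plexus markers none passed and 3 were above zero. Their sums were 841 to 1062 FPKM in KO7 and 505 to 890 FPKM in wild type. The part of these cells in the difference in vessel genes was not tested. The KO7 libraries also carried transcripts of the Y chromosome (Eif2s3y at 22.6 to 25 FPKM, 0 in both wild-type libraries) and almost no Xist (0.0159 to 0.0402 FPKM in KO7, 106 to 117 FPKM in wild type), so sex and genotype cannot be told apart here.

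The count of 13 rested on all 4 libraries of the comparison. It was 0 when KO7 replicate 1 was left out and 5 when KO7 replicate 2 was, 1 when the first wild-type library was left out and 8 when its partner was, and 7 with both adult wild-type sets taken as 1 group. No called member changed sign under any of the 25 settings tried.

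In E19.5 KO2 brains, vessel genes passed the test in both directions. Of the 38 members, 5 rose (Ly6c1, Ly6a, Vwf, Robo4 and Angpt2), 2 fell (Aplnr and Slc38a5) and 31 did not pass. Among all genes, 0.88% rose and 0.398% fell, 1.28% in all. The median log2 change was 0.32 over the members and -0.01 over all genes. Both KO2 libraries lay above both wild-type libraries for 26 members, 68.4% of the set, beside 27.3% of all genes, and below for 5 members, beside 29.9% of all genes. The summed level of the set was 301 to 327 FPKM in KO2 and 239 to 261 FPKM in wild type. The wild-type libraries here are the same ones that KO7 was compared with, so the 2 comparisons share their controls.

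Ly6c1 stood at 24.6 FPKM in both KO2 libraries and at 5.75 and 6.5 FPKM in wild type, a ratio of means of 4.02 (log2 change 1.85, SE 0.214, adjusted p = 0.00528). Ly6a (Sca-1) had 7.62 and 5.15 FPKM in KO2 and 0.762 and 1.26 FPKM in wild type (log2 change 1.87, SE 0.364, adjusted p = 0.0349). KO2 libraries were several times higher for both genes, within the uncertainty of their gene copies. Vwf had 9.02 and 7.03 FPKM in KO2 and 2.60 and 3.07 FPKM in wild type (log2 change 1.23, SE 0.222, adjusted p = 0.0259). Robo4 had 3.07 and 3.21 FPKM in KO2 and 1.46 and 1.52 FPKM in wild type (log2 change 0.73, SE 0.133, adjusted p = 0.0266). Angpt2 had 2.01 and 2.14 FPKM in KO2 and 0.859 and 1.19 FPKM in wild type (log2 change 0.61, SE 0.129, adjusted p = 0.0498). In none of the 5 did the groups overlap, although Angpt2 lay just inside the threshold. The other 6 identity genes had changes above zero without passing.

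The genes that fell were a receptor and a transporter. Aplnr, the receptor for the peptide apelin on growing vessels, stood at 1.5 and 1.11 FPKM in KO2 and at 6.48 and 6.15 FPKM in wild type, a ratio of means of 0.207 (log2 change -1.67, SE 0.192, adjusted p = 0.00528). Slc38a5, a glutamine transporter of barrier endothelium, had 2.13 and 2.38 FPKM in KO2 and 7.88 and 10.2 FPKM in wild type (log2 change -1.62, SE 0.262, adjusted p = 0.0171). Both KO2 libraries were far below the controls in each. Slc38a5 is X-linked, and the part of the low Xist of KO2 replicate 1 was not tested. Apln, which encodes the ligand of Aplnr, had 4.13 and 3.32 FPKM in KO2 and 2.27 and 2.49 FPKM in wild type. The ligand was thus on the higher side in both KO2 libraries without passing the test. Kdr stood at 6.53 and 6.13 FPKM in KO2 and at 7.64 and 7.41 FPKM in wild type, and Cldn5 at 54.1 and 51.4 FPKM in KO2 and at 43.5 and 46.1 FPKM in wild type. None of the 7 pericyte and basement membrane genes, 3 tight junction genes and 4 transcription factors passed. For Kcnj8, KO2 libraries had 2.39 and 2.40 FPKM, within the wild-type range of 1.73 to 3.22 FPKM. Vtn had 26.9 and 27.4 FPKM in KO2 and 18.8 and 24.7 FPKM in wild type.

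Beside these changes, 1 of 7 astrocyte markers rose and all 7 were above zero, with sums of 457 to 491 FPKM in KO2 and 205 to 245 FPKM in wild type. Of 6 oligodendrocyte markers 2 rose, with sums of 92.9 to 167 FPKM in KO2 and 33.9 to 41.8 FPKM in wild type. Of 5 erythroid markers 2 rose, with sums of 405 to 738 FPKM in KO2 and 95 to 519.5 FPKM in wild type. None of the 6 fibroblast markers passed, and their sum was 64.3 FPKM in both KO2 libraries and 57.4 to 81.8 FPKM in wild type. Of 4 choroid plexus markers none passed and all 4 were above zero. Their sums were 906 to 1341 FPKM in KO2 and 505 to 890 FPKM in wild type. The part of these cells in the result was not tested. Without KO2 replicate 1, no astrocyte or oligodendrocyte marker was called. The count of 7 became 2 when either KO2 library was left out, 0 when wild-type replicate 1 was and 2 when its replicate 2 was, and 3 with the adult wild-type sets taken as 1 group. Aplnr and Ly6c1 were called in 24 of the 25 settings, with their highest adjusted p at 0.0627 in both cases, when wild-type replicate 1 was left out.

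**Figure D3:**
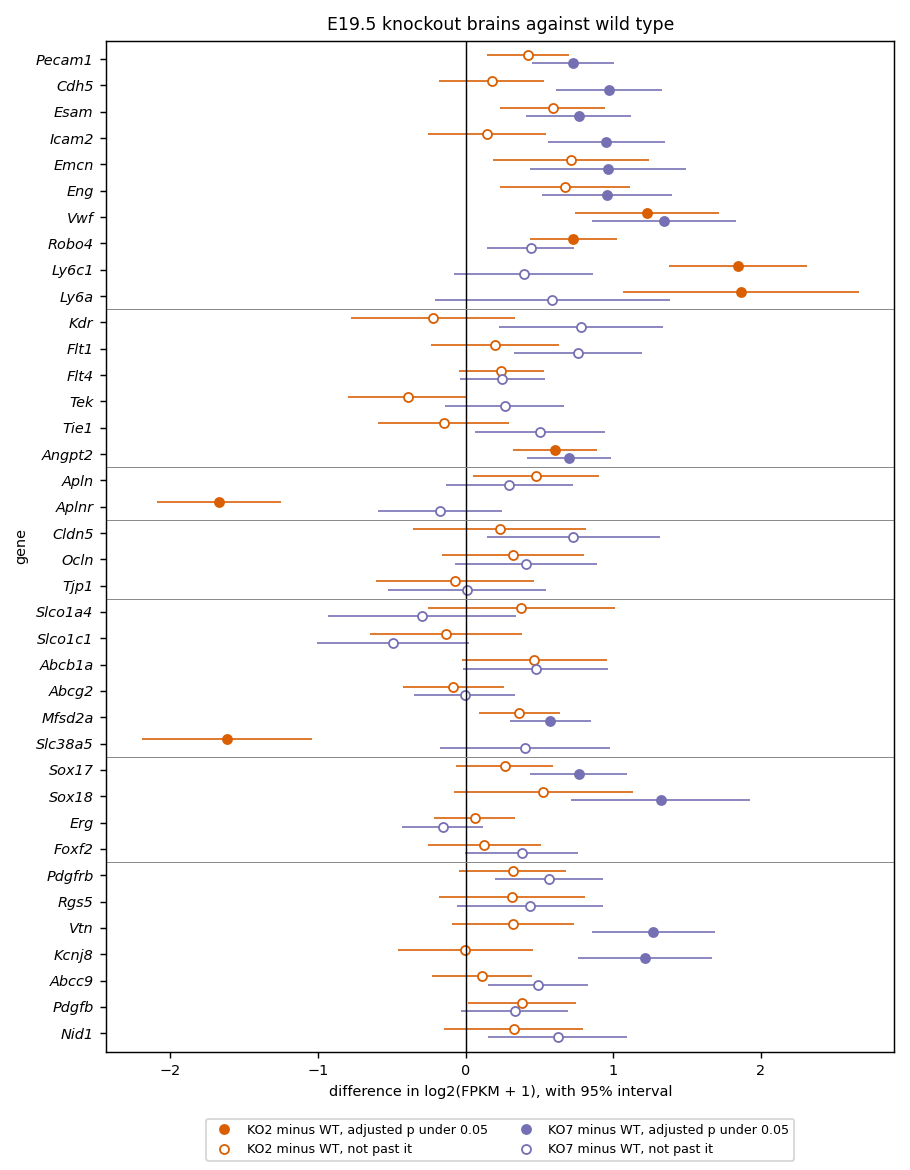
Log2 change from E19.5 wild type with its 95% interval for all 38 members, KO2 and KO7 side by side, ordered by role, where filled symbols passed the test. The KO7 points lie mostly right of zero, and Aplnr and Slc38a5 stand apart as low in KO2 alone. Both sets of points share the wild-type libraries.

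The knockouts were then compared with each other directly. Of the 38 members, 7 were higher in KO7 than in KO2, 1 was lower and 30 did not pass. Among all genes 3.23% were higher and 2.4% lower, 5.63% in all. Median-of-ratios scaling turned the balance over all genes, with 435 higher and 474 lower beside 462 and 344 as deposited, and left the members at 7 higher and 1 lower. Slc38a5 stood at 10.7 and 13.9 FPKM in KO7 and at 2.13 and 2.38 FPKM in KO2 (log2 change 2.02, adjusted p = 0.0024). Aplnr stood at 4.18 and 7.11 FPKM in KO7 and at 1.5 and 1.11 FPKM in KO2 (log2 change 1.5, adjusted p = 0.00228). Ly6c1 was the gene that ran the other way, with 11.1 and 6.24 FPKM in KO7 and 24.6 FPKM in both KO2 libraries (log2 change -1.45, adjusted p = 0.00395). These 3 were called under every setting tried. Higher in KO7 were also Kcnj8 (log2 change 1.22, adjusted p = 0.00823), Vtn (0.95, adjusted p = 0.0161), Cdh5 (0.80, adjusted p = 0.0186), Icam2 (0.81, adjusted p = 0.0275) and Kdr (1.00, adjusted p = 0.0437). Kdr had 12.9 and 14.5 FPKM in KO7 and 6.53 and 6.13 FPKM in KO2. Against wild type, 2 members (Vwf and Angpt2) were called in both knockouts, 11 in KO7 alone, 5 in KO2 alone and 20 in neither. The count of 8 fell to 3 without either KO2 library, 3 without KO7 replicate 1 and 5 without KO7 replicate 2, and it was 13 without either adult KO3 library, which enter only through the shared estimate of the spread.

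Other cells' markers also differed between the knockouts. Of 6 meningeal and fibroblast markers 5 were higher in KO7 (median log2 change 1.30), with sums of 159 to 182 FPKM in KO7 and 64.3 FPKM in both KO2 libraries. Of 7 astrocyte markers 4 were lower (median -1.20), with sums of 234 to 322 FPKM in KO7 and 457 to 491 FPKM in KO2. Of 6 oligodendrocyte markers 4 were lower (median -1.43), with sums of 37.1 to 45.5 FPKM in KO7 and 92.9 to 167 FPKM in KO2. Without KO2 replicate 1 these counts were 2, 1 and 1. The Y-linked Eif2s3y stood at 22.6 to 25 FPKM in KO7 and at 0 to 0.0274 FPKM in KO2, so the knockouts differ in sex as well as in genotype, and these cannot be told apart. The part of the other cells was not tested.

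Promoters were read for members that differed at E19.5, because endothelial genes are known to depend on ETS, SOX and FOX transcription factors and several vessel genes on hypoxia-inducible factors. The RefSeq promoter table, on build GRCm38.p6, held 26 of the 38 members and lacked 12. Each sequence is the 250 bases just upstream of the annotated start, 5′ to 3′ on the strand of the gene, in lower case with motif matches in capitals. The motifs searched on both strands were AGGAAG (ETS), ACAAT (SOX), TAAACA (FOX) and ACGTG (the core of the hypoxia response element). The first 3 promoters belong to endothelial genes that rose in a knockout and hold ETS matches.
Eng, chr2:32646345-32646594, plus strand: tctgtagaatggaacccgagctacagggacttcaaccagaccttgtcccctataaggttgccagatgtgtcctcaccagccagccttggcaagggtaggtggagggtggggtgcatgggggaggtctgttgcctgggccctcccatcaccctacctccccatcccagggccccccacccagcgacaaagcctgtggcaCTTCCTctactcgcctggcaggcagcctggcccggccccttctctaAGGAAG
Emcn, chr3:137340828-137341077, plus strand: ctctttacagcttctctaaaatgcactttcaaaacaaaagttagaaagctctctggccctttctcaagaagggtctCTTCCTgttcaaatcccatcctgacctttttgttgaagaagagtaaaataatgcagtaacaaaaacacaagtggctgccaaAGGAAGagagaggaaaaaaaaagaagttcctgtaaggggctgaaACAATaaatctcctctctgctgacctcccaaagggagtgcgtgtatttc
Robo4, chr9:37401722-37401971, plus strand: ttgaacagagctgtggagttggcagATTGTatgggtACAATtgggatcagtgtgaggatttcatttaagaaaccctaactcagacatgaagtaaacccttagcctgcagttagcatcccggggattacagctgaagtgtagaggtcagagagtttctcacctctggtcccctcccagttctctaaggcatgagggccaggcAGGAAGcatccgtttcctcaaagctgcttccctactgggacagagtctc
The pericyte channel gene Kcnj8 and the lipid transporter gene Mfsd2a rose in KO7.
Kcnj8, chr6:142571615-142571864, minus strand: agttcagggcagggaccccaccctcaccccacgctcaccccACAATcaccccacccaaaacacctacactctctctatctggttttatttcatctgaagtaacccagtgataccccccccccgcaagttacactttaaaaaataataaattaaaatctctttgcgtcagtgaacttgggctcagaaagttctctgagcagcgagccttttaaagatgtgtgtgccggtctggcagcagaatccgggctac
Mfsd2a, chr4:122961189-122961438, minus strand: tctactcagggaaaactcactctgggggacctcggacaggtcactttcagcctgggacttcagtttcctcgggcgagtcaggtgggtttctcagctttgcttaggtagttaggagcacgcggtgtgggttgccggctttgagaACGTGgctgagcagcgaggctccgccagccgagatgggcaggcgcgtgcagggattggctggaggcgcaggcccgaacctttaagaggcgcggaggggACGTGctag
Ly6c1 was lower in KO7 than in KO2, and Slc38a5 was one of the 7 members that were higher.
Ly6c1, chr15:75048838-75049087, minus strand: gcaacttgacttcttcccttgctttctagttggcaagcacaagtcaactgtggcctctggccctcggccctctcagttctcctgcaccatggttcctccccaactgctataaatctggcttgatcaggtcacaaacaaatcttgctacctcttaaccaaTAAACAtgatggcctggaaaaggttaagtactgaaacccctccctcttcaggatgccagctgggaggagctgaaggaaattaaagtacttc
Slc38a5, chrX:8271131-8271380, plus strand: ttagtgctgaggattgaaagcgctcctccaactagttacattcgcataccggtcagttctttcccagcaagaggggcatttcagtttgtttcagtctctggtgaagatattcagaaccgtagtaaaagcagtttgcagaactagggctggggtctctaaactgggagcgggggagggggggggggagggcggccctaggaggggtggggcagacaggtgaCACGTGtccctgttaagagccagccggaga

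The ETS letters stood 52 and 6 bases before the start of Eng, 174 and 93 bases before that of Emcn and 49 bases before that of Robo4. SOX letters stood 49 bases before the start of Emcn, 225 and 214 bases before that of Robo4 and 209 bases before that of Kcnj8. FOX letters stood 91 bases before the start of Ly6c1. The hypoxia core stood 107 and 9 bases before the start of Mfsd2a, while in Slc38a5 the matches at 30 and 29 bases are a single palindrome read on both strands. Across all 32851 promoters of the table, 29.5% held the ETS letters, 27.7% the SOX letters, 12% the FOX letters and 16.6% the hypoxia core. Of the 26 member promoters, 12 held the ETS letters, 7 the SOX letters, 4 the FOX letters and 2 the hypoxia core. The member counts took the first listed promoter of each gene, whereas the shares took every promoter listed, so they are not like for like. The sequences printed are those of the farthest upstream start and need not be the promoters counted. These are matches of letters alone, and binding was not measured.

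Genes outside the set that act on the same vessels were counted from lists by role. In KO7, of 15 other endothelial genes tested 6 rose and none fell, with a median log2 change of 0.59 beside 0.00 over all genes. Cav1, the coat protein of endothelial caveolae, had 22.5 and 22.6 FPKM in KO7 and 7.11 and 7.17 FPKM in wild type (log2 change 1.53, adjusted p = 0.00432). In KO2 none of the 15 passed, and Cav1 had 9.82 and 9.17 FPKM there. Of 12 other pericyte and mural genes 4 rose in KO7 and none in KO2. Ndufa4l2, a pericyte-enriched mitochondrial protein induced by hypoxia, had 11.8 and 8.55 FPKM in KO7 and 1.37 and 2.49 FPKM in wild type (log2 change 1.94, adjusted p = 0.00718). Anpep, the aminopeptidase CD13 of pericytes, had 3.62 and 3.82 FPKM in KO7 and 1.61 and 2.05 FPKM in wild type (log2 change 0.74, adjusted p = 0.0119).

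Of 18 genes of VEGF, angiopoietin and Notch signalling, 3 rose in KO7 and 2 in KO2, and none fell in either. Vegfa, the ligand of Kdr and Flt1, had 35.3 and 33.6 FPKM in KO7 and 17.1 and 15.2 FPKM in wild type (log2 change 1.05, adjusted p = 0.00314). In KO2 it had 25 and 21.9 FPKM and did not pass (log2 change 0.51, adjusted p = 0.11). S1pr1, the sphingosine-1-phosphate receptor of endothelium and astrocytes, rose in KO2, with 20.7 and 20.9 FPKM there and 9.79 and 11.1 FPKM in wild type (log2 change 0.93, adjusted p = 0.0203). Notch4, the endothelial Notch receptor, had 2.88 and 2.79 FPKM in KO2 and 1.21 and 1.53 FPKM in wild type (log2 change 0.70, adjusted p = 0.0344). Of 13 genes of the Wnt pathway that induces the barrier, 1 rose in KO7 and none in KO2. That gene was Gpr124, the co-receptor for Wnt7 ligands, with 5.99 and 6.72 FPKM in KO7 and 3.43 and 3.94 FPKM in wild type (log2 change 0.65, adjusted p = 0.0414).

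Among 18 other transporter and junction genes, 1 (Slc2a1) rose and 1 (Tfrc) fell in each knockout. Slc2a1, the glucose transporter GLUT1 of barrier endothelium, had 54.2 and 53.6 FPKM in KO2, 63.7 and 51.6 FPKM in KO7 and 18.5 and 20.2 FPKM in wild type. All 4 knockout libraries were far above the controls, with log2 changes of 1.43 in KO2 (adjusted p = 0.00882) and 1.52 in KO7 (adjusted p = 0.00315). Tfrc, the transferrin receptor that brings iron across the barrier, had 11.5 and 14.6 FPKM in KO2, 10.03 and 11.5 FPKM in KO7 and 23.1 and 21.7 FPKM in wild type. It fell in KO2 (log2 change -0.74, adjusted p = 0.0489) and in KO7 (log2 change -0.99, adjusted p = 0.00818). Of 12 basement membrane genes, 2 rose in KO2 and 4 in KO7. Col4a1, a collagen IV chain, had 45.7 and 39.5 FPKM in KO2, 39.9 and 42.5 FPKM in KO7 and 22.1 and 24.1 FPKM in wild type. The knockout libraries were again clear of the controls, which the 2 comparisons share. Without KO2 replicate 1, none of the genes in these 6 lists was called in KO2.

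Between E19.5 and adulthood, the vessel genes of wild-type brains divided: 9 members were higher in the adult (set 1), 8 lower and 21 did not pass. Among all genes 21.9% were higher and 34.1% lower, 56% in all, so that many calls are the background of this comparison. The median log2 change was 0.08 over the members and -0.15 over all genes. Scaled by median of ratios, the median over all genes came to 0.01 and the members divided into 12 higher and 7 lower. That scaling gave 4057 higher and 3813 lower among all genes, beside 3135 higher and 4885 lower as deposited. No called member changed sign. Markers of other cells moved over the same interval. All 6 oligodendrocyte markers were higher in the adult (median log2 change 5.75), with sums of 2394 to 3139 FPKM in the adult and 33.9 to 41.8 FPKM at E19.5. All 7 astrocyte markers were higher (median 2.38), with sums of 1370 to 1423 FPKM in the adult and 205 to 245 FPKM at E19.5. Of 6 microglial markers 5 were higher and 1 lower, with sums of 83.9 to 101 FPKM in the adult and 19.7 to 23.0 FPKM at E19.5. Of 6 meningeal and fibroblast markers 2 were lower and none higher, with sums of 31.1 to 43.9 FPKM in the adult and 57.4 to 81.8 FPKM at E19.5. Their part in the stage changes was not tested.

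Of the 9 members higher in the adult, 3 are endothelial identity genes and 2 are transporters, beside 2 transporters that were lower. Ly6a had 42.1 and 15.9 FPKM in adult wild type and 0.762 and 1.26 FPKM at E19.5 (log2 change 3.76, SE 0.364, adjusted p = 7.67e-06), with its adult libraries far apart. Ly6c1 had 51.0 and 36.6 FPKM in the adult and 5.75 and 6.5 FPKM at E19.5 (log2 change 2.64, adjusted p = 2.27e-06). Slco1a4, which exchanges organic anions at the mature barrier, had 7.02 and 6.56 FPKM in the adult and 1.21 and 0.854 FPKM at E19.5 (log2 change 1.94, adjusted p = 0.000177). Abcb1a, the drug pump P-glycoprotein, had 6.83 and 7.18 FPKM in the adult and 2.35 and 2.73 FPKM at E19.5 (log2 change 1.18, adjusted p = 0.000956). It too has a close copy, Abcb1b, which makes its value uncertain. Apln had 12.1 and 11.3 FPKM in the adult and 2.27 and 2.49 FPKM at E19.5 (log2 change 1.91, adjusted p = 1.13e-05). Flt1 rose by 1.17 on the log2 scale (adjusted p = 0.000427) and Vtn by 0.95 (adjusted p = 0.00127). Sox18 (log2 change 0.70, adjusted p = 0.0487) and Emcn (0.66, adjusted p = 0.0355) lay nearer to the threshold.

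Lower in the adult were 8 members, the apelin receptor, a VEGF receptor and a basement membrane gene among them. Aplnr had 0.206 and 0.506 FPKM in the adult and 6.48 and 6.15 FPKM at E19.5 (log2 change -2.44, adjusted p = 1.76e-06). Nid1, which links laminin to collagen IV in the basement membrane, had 1.90 and 2.53 FPKM in the adult and 11 and 13.7 FPKM at E19.5 (log2 change -2.05, adjusted p = 1.34e-05). Kdr had 2.78 FPKM in both adult libraries and 7.64 and 7.41 FPKM at E19.5 (log2 change -1.17, adjusted p = 0.00218). The stages did not overlap for any of these. Slc38a5 fell by 1.16 on the log2 scale (adjusted p = 0.0029) and the drug pump gene Abcg2 by 0.58 (adjusted p = 0.00841). Abcc9 fell by 0.64 (adjusted p = 0.0045), Foxf2, a factor of brain pericytes, by 0.56 (adjusted p = 0.0171) and Cdh5 by 0.53 (adjusted p = 0.0163). Ligand and receptor of the apelin pair thus went opposite ways, and so did the VEGF receptors Flt1 and Kdr.

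In KO2 brains the same interval gave 6 members higher in the adult, 16 lower and 16 that did not pass, beside 20.7% higher and 28.6% lower among all genes (49.3% in all). Median-of-ratios scaling gave 3560 higher and 3532 lower among all genes, beside 2963 and 4099 as deposited, and 6 members higher and 14 lower. Without E19.5 KO2 replicate 1, 6 members were higher and 12 lower. No library is shared with the wild-type stage comparison. The 6 higher ones (Ly6c1, Ly6a, Flt1, Apln, Slco1a4 and Abcb1a) were higher in wild type too, and 6 genes were lower in both genotypes (Cdh5, Kdr, Aplnr, Foxf2, Abcc9 and Nid1). Among the higher ones the KO2 log2 change was 1.78 for Ly6a (adjusted p = 0.00188), 1.56 for Slco1a4 (0.00103), 1.06 for Apln (0.000983), 0.98 for Ly6c1 (0.00296), 0.76 for Flt1 (0.00821) and 0.76 for Abcb1a (0.0155), with the adjusted p in brackets. Among the lower ones it was -2.46 for Nid1 (5.45e-06), -1.25 for Kdr (0.00184), -1.05 for Aplnr (0.000917), -0.99 for Cdh5 (0.000479), -0.82 for Foxf2 (0.00236) and -0.78 for Abcc9 (0.0016). The Aplnr value is limited by adult levels under 1 FPKM, where this scale understates changes. Its ratio of adult to E19.5 means was 0.082 in KO2 and 0.0564 in wild type. No member was called in opposite directions. A further 5 were called in wild type alone and 10 in KO2 alone, and 11 in neither. All 10 called in KO2 alone were lower in the adult.

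Those 10 were the claudin gene, the angiopoietin gene, 3 receptor genes and 5 identity genes. Cldn5 had 12.2 and 16.9 FPKM in adult KO2 and 54.1 and 51.4 FPKM in E19.5 KO2 (log2 change -1.81, adjusted p = 0.000219). In wild type Cldn5 had 33.5 and 30.8 FPKM in the adult and 43.5 and 46.1 FPKM at E19.5, without passing. Eng had 3.63 and 6.24 FPKM in adult KO2 and 10.3 and 10.8 FPKM in E19.5 KO2 (log2 change -1.0, adjusted p = 0.00175), and in wild type 7.43 and 6.47 FPKM in the adult and 5.95 and 6.55 FPKM at E19.5. Angpt2 and Robo4 also fell in KO2 alone (log2 changes -0.86 and -0.78, adjusted p = 0.00025 and 0.0006). Pdgfrb had 3.78 and 4.20 FPKM in adult KO2 and 7.44 and 7.26 FPKM in E19.5 KO2 (log2 change -0.75, adjusted p = 0.00333), and Esam had 5.63 and 6.27 FPKM in adult KO2 and 11.7 and 9.79 FPKM in E19.5 KO2 (log2 change -0.76, adjusted p = 0.00254). The other 4 were Vwf (log2 change -0.73, adjusted p = 0.0178), Tie1 (-0.57, adjusted p = 0.0343), Flt4 (-0.39, adjusted p = 0.0283) and Pecam1 (-0.35, adjusted p = 0.0393). Without E19.5 KO2 replicate 1, those 4 were no longer called, and Flt4 no longer reached the filter. Beside these changes, all 6 oligodendrocyte and 5 of 7 astrocyte markers were higher in adult KO2, 5 of 6 microglial markers were higher and 1 lower, and 3 of 6 meningeal and fibroblast markers were lower. The part of those cells was not tested. Of 12 other basement membrane genes, 8 were lower in the adult in KO2 and none higher, while in wild type 8 were lower and 1 higher. Col4a1 had 6.88 and 6.93 FPKM in adult KO2 and 45.7 and 39.5 FPKM in E19.5 KO2. Without E19.5 KO2 replicate 1, 8 of those 12 genes were lower in adult KO2.

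**Figure D4:**
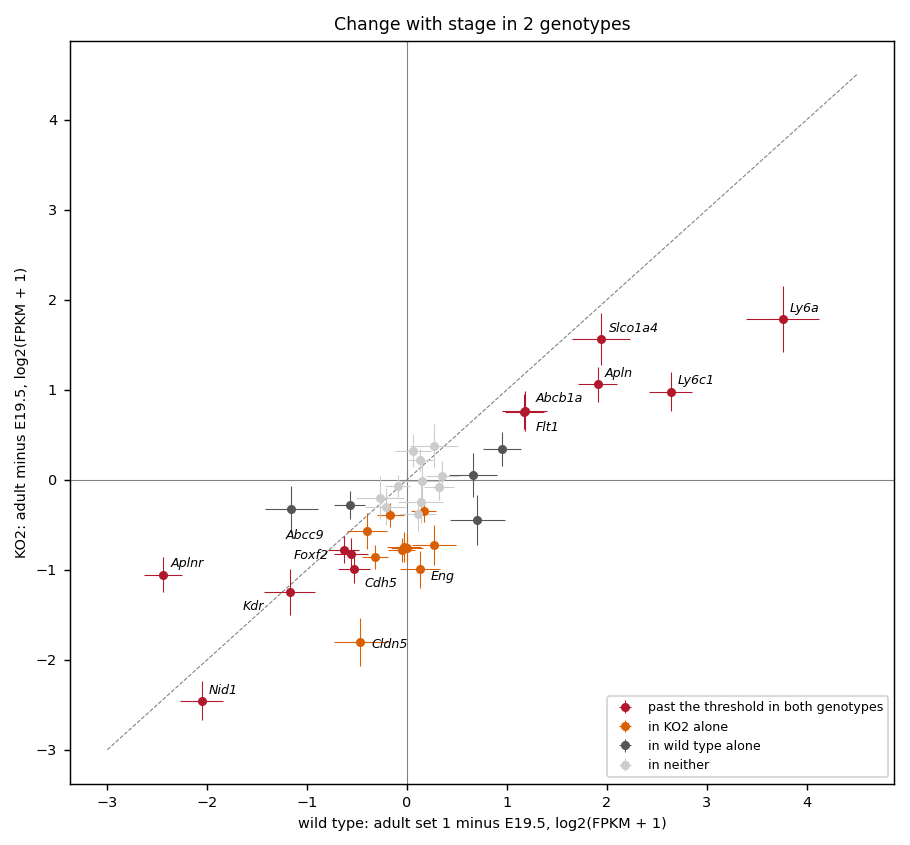
Log2 change from E19.5 to adult for each of the 38 members, with KO2 and wild type (set 1) on separate axes and the line of equal change drawn. Colours say in which genotype a member passed the test. Most points lie on the KO2-lower side of the line, with Ly6a, Ly6c1 and Cldn5 among the farthest below it and Aplnr above it. Aplnr was under 1 FPKM in the adult, where this scale understates changes.

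The difference of these stage changes is the same quantity as the KO2 effect in the adult minus the KO2 effect at E19.5, and it was tested as an interaction. None of the 38 members passed in limma, and 15 had an unadjusted p under 0.05. Among all genes 9 passed (0.0628%, with 5 above zero and 4 below, against 3 and 5 under median-of-ratios scaling and 25 and 28 under quantile scaling) and 2118 had an unadjusted p under 0.05. The difference was below zero for 30 of 38 members, with a median of -0.40 over the members and 0.04 over all genes. It was also below zero for all 7 astrocyte markers (median -0.87) and all 6 oligodendrocyte markers (median -1.34), none of which passed, and their part in the members' difference was not tested. Nearest to the threshold were Ly6c1 (difference -1.66, adjusted p = 0.0688), Aplnr (difference 1.39, adjusted p = 0.0714) and Eng (difference -1.13, adjusted p = 0.132). Cldn5 had a difference of -1.34 (adjusted p = 0.163). Aplnr was under 1 FPKM in the adult, where the log2(FPKM + 1) scale understates changes. Its ratio of means, KO2 over wild type, was 0.207 at E19.5 and 0.301 in the adult, below 1 at both stages. A stage change called in one genotype alone is therefore not shown to differ between genotypes. The count was 3 without either adult KO3 library, 1 without either KO7 library and 1 without adult wild-type set 1 replicate 2. Without E19.5 KO2 replicate 1 it was 0, with 29 of the 37 members then tested below zero and a median of -0.32.

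In adult KO2 brains no member passed against wild-type set 1, and 6 had an unadjusted p under 0.05. Among all genes 22 passed (0.154%) and 1051 had an unadjusted p under 0.05. The median log2 change was -0.09 over the members and 0.04 over all genes. Both KO2 libraries lay below both wild-type libraries for 13 members (16.2% of all genes did) and above them for 4 (30% of all genes). Cldn5 had 12.2 and 16.9 FPKM in KO2 and 33.5 and 30.8 FPKM in wild-type set 1, a log2 change of -1.11 whose 95% interval ran from -1.69 to -0.52 (adjusted p = 0.229). Both KO2 libraries were well below both controls, yet the test over all genes did not call it. In wild-type set 2, Cldn5 stood at 17.9 and 20.4 FPKM, below both set 1 libraries. Slc38a5 had 1.22 and 2.02 FPKM in adult KO2 and 4.31 and 2.77 FPKM in set 1 (log2 change -0.79, adjusted p = 0.495). Aplnr had 0.102 and 0.113 FPKM in adult KO2 and 0.206 and 0.506 FPKM in set 1. Those 2 genes fell at E19.5, and in the adult the KO2 libraries were lower than set 1, without passing. In wild-type set 2, Slc38a5 stood at 1.19 and 2.17 FPKM, a range that holds both adult KO2 values. Aplnr was under 1 FPKM in every adult library.

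For the Ly6 genes, the adult KO2 and wild-type libraries overlapped. Ly6c1 had 48.1 and 50.6 FPKM in adult KO2 and 51.0 and 36.6 FPKM in wild-type set 1. Ly6a had 26.8 and 21.6 FPKM in adult KO2 and 42.1 and 15.9 FPKM in set 1. Mfsd2a had 18.9 and 20.2 FPKM in KO2 and 13.6 and 14.5 FPKM in set 1 (log2 change 0.45, adjusted p = 0.333). None of the genes in the 6 lists of other vessel genes passed in adult KO2. Erythroid markers summed to 531 to 543 FPKM in adult KO2 and 24.6 to 356 FPKM in set 1, and none of the 5 passed. Meningeal and fibroblast markers summed to 22.3 to 24.3 FPKM in KO2 and 31.1 to 43.9 FPKM in set 1 (4 of 6 below zero). Choroid plexus markers summed to 121 and 1161 FPKM in the KO2 libraries and 167 to 340 FPKM in set 1 (all 4 above zero). No marker of any other cell type passed, and their part was not tested. Without either adult KO3 library the count of members called was 1.

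**Figure D5:**
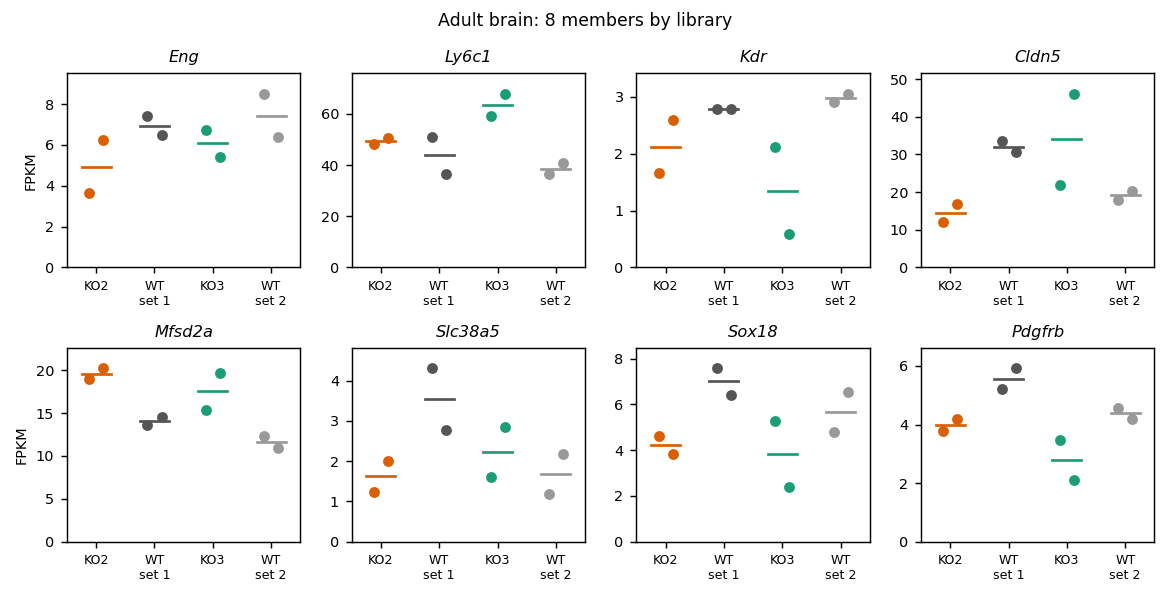
FPKM per library in adult brains for members with an unadjusted p (limma) under 0.05 in KO2 or past the threshold in KO3. KO2 is left of wild-type set 1 and KO3 left of wild-type set 2, with a bar at each group's mean of 2 libraries. The panels were thus picked by tests on these same libraries. Cldn5 is below its controls in both KO2 libraries, and Kdr and Pdgfrb are lowest in KO3 replicate 2.

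In adult KO3 brains, 4 members passed against wild-type set 2, 2 higher and 2 lower, while 13.9% of all genes were higher and 8.2% lower (22.1% in all). The members' share is below that background. Median-of-ratios scaling gave 3 members higher and 2 lower, and 2000 genes higher and 1846 lower in all. Quantile scaling gave 1620 genes higher and 1803 lower in all, beside 1990 and 1174 as deposited. Mfsd2a had 15.4 and 19.7 FPKM in KO3 and 12.3 and 10.9 FPKM in wild type (log2 change 0.55, SE 0.125, adjusted p = 0.0168). Ly6c1 had 59.0 and 67.8 FPKM in KO3 and 36.4 and 40.7 FPKM in wild type (log2 change 0.70, SE 0.214, adjusted p = 0.0398). Both KO3 libraries were above both controls in each. Kdr had 2.12 and 0.581 FPKM in KO3 and 2.91 and 3.05 FPKM in wild type (log2 change -0.84, SE 0.254, adjusted p = 0.0386). Pdgfrb had 3.49 and 2.12 FPKM in KO3 and 4.58 and 4.20 FPKM in wild type (log2 change -0.52, SE 0.167, adjusted p = 0.0449). For both the KO3 libraries were lower, replicate 2 by more.

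The KO3 libraries differed between themselves across the set. KO3 replicate 1 lay below both wild-type libraries for 13 members and above both for 10, and replicate 2 below for 21 and above for 11. Over all genes tested, replicate 1 lay below for 29.8% and above for 38.1%, and replicate 2 below for 45.1% and above for 37.4%. Tjp1, the scaffold protein ZO-1 of tight junctions, had 14.4 and 7.16 FPKM in KO3 and 18.3 and 14.6 FPKM in wild type. Cldn5 had 22.0 and 46.1 FPKM in KO3 and 17.9 and 20.4 FPKM in wild type, so that replicate 2 was the lower one for the scaffold and the higher one for the claudin. Flt4, Aplnr and Angpt2 were listed at 0 in all 4 libraries of this comparison. Among the other vessel genes, 4 of 15 endothelial genes were higher and none lower, and 4 of 12 basement membrane genes were lower and none higher. Plvap, a protein of fenestrated endothelium, had 11.3 and 14.9 FPKM in KO3 and 6.66 and 6.75 FPKM in wild type (log2 change 0.86, adjusted p = 0.0154). Of the remaining lists, 2 of 18 VEGF and Notch genes were higher and 1 lower, 2 of 13 Wnt genes lower, 2 of 18 transporter and junction genes higher and 1 of 12 pericyte genes higher. Without KO3 replicate 2 none of the genes in these 6 lists was called, and without wild-type set 2 replicate 2 the calls were 1 VEGF and Notch gene higher (Pgf) and 2 basement membrane genes lower (Lama5 and Agrn). Erythroid markers summed to 965 to 1008 FPKM in KO3 and 60.8 to 117 FPKM in wild type, with 2 of 5 higher (none without KO3 replicate 2 or without wild-type set 2 replicate 2), and their part in the result was not tested. Choroid plexus markers summed to 773 to 837 FPKM in KO3 and 508 to 552 FPKM in wild type. None of the 4 passed (2 above zero, 2 below), and their part was not tested. The count of 4 members fell without KO3 replicate 2 or without either wild-type set 2 library, and rose without KO3 replicate 1. The count over all genes moved the same way each time, and each of these fits leaves a group of 1 library. Without any single library of the other groups, 1 or 2 members were called. The count was 0 when only the 4 libraries of this comparison were fitted. In a test of wild-type set 2 against set 1, no member was higher and 2 were lower (Flt4 and Angpt2, both listed at 0 in set 2). The unadjusted p (limma) was under 0.05 for 8 members and for 5210 of all genes tested. Low values had been handled differently in these sets, so that comparison was not read further.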

How the data were processed

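The authors deposited 1 table of FPKM values, a unit named in the table for 10 of the 14 libraries and assumed for the other 4 (adult KO3, wild-type set 2). Build mm9 and the tools TopHat2 2.1.1, Cufflinks 2.2.1 and CASAVA appear, without role or order, in the submitters' processing notes. Annotation, strand and between-library scaling: not given in the sources used here. The table holds 23375 genes; 2 further entries name no gene and were left out. Sequencing depth cannot be read from FPKM, and low values showed no steps of whole reads.

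The 14322 genes that reached 1 FPKM in 2 or more libraries entered limma 3.58.1 (R 4.3.3) on log2(FPKM + 1), with a trend of variance on level, 7 groups sharing 1 estimate of the spread (7 residual degrees of freedom), two-sided, and Benjamini-Hochberg adjustment over all genes tested. Fold changes are on that scale, which understates changes of low genes. The fit was tested on simulated data. The rule for names in the text took every member, with log2 change and adjusted p (and the SE for some) of those past the adjusted p of 0.05, and up to 4 genes of each other list. The members and lists were chosen with earlier results of these data known, as was the pairing of adult groups with wild-type sets. Marker sums add FPKM over a list.

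Promoters and motif shares come from RefSeq (GRCm38.p6), not the build of the expression values, so no position of a gene in the expression data is given. Alternatives covered the pseudocount (0.1 and 10), the filter (none, or 5 FPKM), values below 1 FPKM set to 0, median-of-ratios and quantile scaling, pooled adult wild types, only the groups compared, a replicate block, 3 libraries left out together and each library left out in turn.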

Additional observations from a re-analysis of the deposited data

How the results depend on the processing

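Each of the 71 called member values kept its sign under the 25 settings in which it was tested, 30 kept their call in every one and 41 lost it in at least 1; the cause was not tested. Leaving out 1 library at a time gave 0 to 8 members called in E19.5 KO2 (7 with all libraries), 0 to 19 in E19.5 KO7 (13), 0 to 1 in adult KO2 (0), 0 to 18 in adult KO3 (4), 3 to 13 in E19.5 KO7 against KO2 (8) and 0 to 3 for the interaction (0). The stage comparisons gave 12 to 19 in wild type (17) and 18 to 23 in KO2 (22). With adult wild types pooled, 3 members were called in E19.5 KO2 and 7 in KO7. With 3 libraries left out that stood apart in earlier work (replicate 2 of adult KO3, replicate 2 of wild-type set 2 and replicate 1 of E19.5 KO2), 2 were called in E19.5 KO2 and 0 in adult KO3. In adult KO3, 2 were called with a pseudocount of 10, 1 with no filter and 0 with only the groups compared. The interaction gave 2 with values below 1 FPKM set to 0, 1 with quantile scaling and 3 with only the groups compared.

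With a replicate block, 6 members were called in E19.5 KO2, 12 in KO7, 0 in adult KO2, 3 in adult KO3, 16 and 22 in the wild-type and KO2 stage comparisons, 7 in KO7 against KO2 and 0 for the interaction. The numbers are shared by name alone: differences between replicates correlated at -0.163 to 0.233 over the comparisons.

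Counts over all genes moved more. E19.5 KO2 (183) ranged from 6 to 529 when 1 library was left out, and gave 38 with wild types pooled, 333 with only the groups compared, 391 with no filter, 121 with the filter of 5 FPKM, 287 with values below 1 FPKM set to 0, 287 with quantile scaling and 73 without the 3 libraries. E19.5 KO7 (637) ranged from 47 to 1559, with 410 at 5 FPKM, 145 pooled and 1326 without the 3. E19.5 KO7 against KO2 (806) ranged from 174 to 1677, with 241 pooled and 413 without the 3. Adult KO2 (22) ranged from 1 to 36, with 65 unfiltered, 14 at 5 FPKM, 72 with low values at 0, 7 pooled and 0 with only the groups compared. Adult KO3 (3164) ranged from 8 to 6773, with 1751 unfiltered, 6 with only the groups compared and 107 without the 3. The interaction (9) ranged from 2 to 272, with 21 and 19 at pseudocounts of 0.1 and 10, 122 unfiltered, 206 with low values at 0, 53 under quantile scaling, 3 pooled and 249 with only the groups compared. With no counts, the depth that limits the 9 members under 1 FPKM in some library is unknown.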
